A study of Mus musculus with 6 samples.

Results

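The genes described are those of 5 inhibitory checkpoint receptors other than TIM-3, namely Lag3, Tigit, Ctla4, Cd96 and Cd160. They were chosen by name and are 5 of 518 gene probes in the deposited value table. All 5 passed the count filter for testing, Ctla4 only through libraries without antibody. Transcripts of purified natural killer (NK) cells from female C57BL/6 mice were counted with a NanoString nCounter panel, which counts hybridised barcodes without amplification. Every culture lasted 12 days and received IL-15 coupled to its receptor alpha chain at 10 ng/mL. In the anti-TIM-3 group (2 libraries) the culture also held irradiated AgN2a-4P feeder cells (100 Gy), and the expanded cells were exposed to anti-TIM-3 antibody for 4 h before they were purified again. The untreated feeder group (2 libraries) had the same feeder cells and no treatment in its labels, although the design text names an IgG2a isotype control. The anti-TIM-3 libraries are replicates 1 and 2 and the untreated feeder libraries replicates 2 and 3. Antibody, any handling that went with it and replicate make-up therefore cannot be told apart. The IL-15 group (2 libraries) had neither feeder cells nor antibody. The feeder line is a mouse neuroblastoma that carries added costimulatory ligands, among them CD80 and CD86. Neither the age of the mice nor whether a group's libraries stem from different animals is given, and p-values therefore cover only differences between these samples, whose spread may be technical.

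Inhibitory checkpoint receptors are surface proteins that dampen a lymphocyte when they bind a ligand on a neighbouring cell, and several are targets of blocking antibodies. LAG-3 binds MHC class II. TIGIT and CD96 both bind CD155, the product of Pvr, for which they compete with the activating receptor DNAM-1. CTLA-4 competes with the costimulatory receptor CD28 for CD80 and CD86. CD160 binds the herpesvirus entry mediator HVEM, encoded by Tnfrsf14, and MHC class I molecules. NK cells can carry all of these receptors, and all are also known from T cells.

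Cd160 had the highest and Ctla4 the lowest log2 fold change of the 5 genes in both comparisons with anti-TIM-3, so the sequence around their transcription starts is shown here, from RefSeq. Each runs from 250 bases before to 50 bases after an annotated start, 5′ to 3′ on the gene's strand. Cd160 has 2 annotated starts in the table, and the counts do not tell which was used. Capitals mark the core of the site bound by NFAT factors (GGAAA, or TTTCC on the other strand), searched because Nfatc1 is among the regulators described further on.
Cd160, distal start (GRCm38.p6, chr3:96829302-96829601, minus strand): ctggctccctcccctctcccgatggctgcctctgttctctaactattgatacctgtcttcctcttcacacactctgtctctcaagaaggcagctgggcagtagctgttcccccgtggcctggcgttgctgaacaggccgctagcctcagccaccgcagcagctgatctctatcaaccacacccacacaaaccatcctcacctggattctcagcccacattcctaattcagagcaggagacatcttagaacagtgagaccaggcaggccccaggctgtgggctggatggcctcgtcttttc
Cd160, proximal start (GRCm38.p6, chr3:96814472-96814771, minus strand): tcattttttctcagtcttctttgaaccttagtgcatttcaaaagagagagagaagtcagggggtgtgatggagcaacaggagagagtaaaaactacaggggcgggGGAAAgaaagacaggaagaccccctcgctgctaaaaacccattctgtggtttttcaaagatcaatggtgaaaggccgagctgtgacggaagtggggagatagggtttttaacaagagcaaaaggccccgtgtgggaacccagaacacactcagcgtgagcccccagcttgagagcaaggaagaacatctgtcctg
Ctla4 (GRCm38.p6, chr1:60908775-60909074, plus strand): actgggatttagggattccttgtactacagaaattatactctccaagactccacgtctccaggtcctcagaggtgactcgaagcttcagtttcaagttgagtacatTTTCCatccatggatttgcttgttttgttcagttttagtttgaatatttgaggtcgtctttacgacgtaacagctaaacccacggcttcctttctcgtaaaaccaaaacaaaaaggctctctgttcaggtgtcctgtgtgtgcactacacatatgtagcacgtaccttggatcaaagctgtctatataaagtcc
The core occurred once in the Ctla4 window and once in the proximal Cd160 window, and 61.3% of all 32851 promoter windows of this length held at least 1. An interferon response element, searched as GAAA, any 2 bases and GAAA again on either strand, was in none of the 5 windows listed for Cd160, Ctla4, Cd96 and Tigit, and in 3.44% of all windows. Tigit had 2 NFAT cores and Cd96 had 5. A match is only a description of these letters.

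In the libraries the recovered counts totalled 299485 to 441185, and the 8 negative control probes averaged 4.25 to 6.13 counts. NK markers were present throughout: the summed normalised count of the 10 listed NK genes was 91908 and 101353 in anti-TIM-3 NK cells, 71873 and 88107 in untreated feeder NK cells, and 55350 and 58875 in IL-15 NK cells. A difference was called when limma's p-value, adjusted by Benjamini-Hochberg over 430 tested probes, was below 0.05. Normalised counts are the deposited values, which the authors put on a scale where 20 housekeeping probes have the same mean log2 value in each library. On that scale the 430 probes had a median log2 fold change of 0.47 for anti-TIM-3 minus untreated feeder, 0.19 for untreated feeder minus IL-15 and 0.70 for anti-TIM-3 minus IL-15. Differences are therefore also given relative to these medians. Of the 10 NK genes, 5 rose and 2 fell between anti-TIM-3 and untreated feeder libraries, beside 31.4% and 7.21% of all probes. With TMM (trimmed mean of M values) scaling 2 rose and 2 fell, beside 12.3% and 11.6%. On the housekeeping scale the falls were those of Eomes and of Prf1, the perforin gene (-2.41 ± 0.39, limma adjusted p = 0.0104). The summed count thus does not stand for each NK gene. Where a pair of values is given for a group, they are those of its 2 libraries in order of replicate number. The 4 other scales counted below are TMM, total count, median of ratios and positive controls. The p-values on the positive control scale are not comparable, for the reason given with Ctla4.

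Cd160 was the receptor gene that stood out, at 5.96 times its untreated feeder level. Its normalised count was 1397 and 1439 in anti-TIM-3 NK cells, 327 and 173 in untreated feeder NK cells, and 191 and 141 in IL-15 NK cells. Both anti-TIM-3 libraries were far above the other 4, while the untreated feeder and IL-15 libraries overlapped. The log2 fold change was 2.58 ± 0.34 (standard error of the fit, n = 2 per group) against untreated feeder libraries, a 5.96-fold rise (limma adjusted p = 0.00830). Against IL-15 libraries it rose by 3.11 ± 0.34 (limma adjusted p = 0.00214). Relative to the medians of all probes these differences were 2.11 and 2.41, and they ranked 15th and 12th highest of 430. In bulk RNA, a larger share of cells that carry a transcript and more of it per cell cannot be told apart. The call held on all 4 other scales tried, with log2 fold changes of 2.04 to 2.30 against untreated feeder libraries, and ended without untreated feeder replicate 3 (2.12, limma adjusted p = 0.0538). No probe of 430 passed without that library, which leaves 1 untreated feeder library in the fit (156 had an unadjusted p below 0.05). For untreated feeder minus IL-15, Cd160 was at 0.53 ± 0.34, which did not pass (limma adjusted p = 0.720, 95% interval -0.28 to 1.35).

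**Figure D1:**
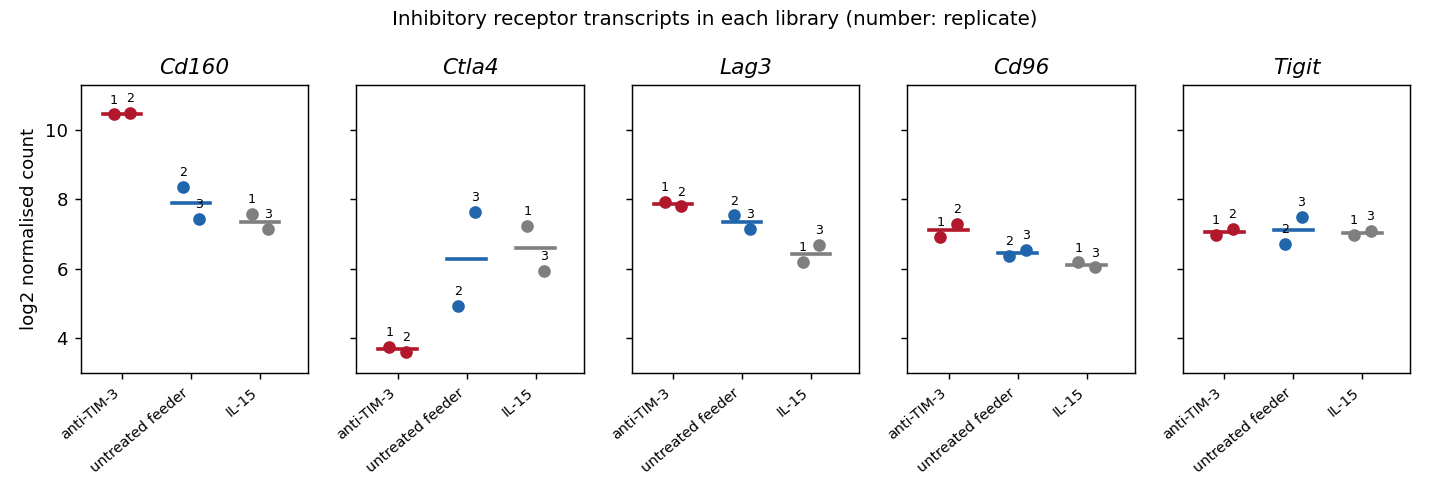
Log2 normalised count (vertical axis) of the 5 receptor genes in each of the 6 libraries, grouped as anti-TIM-3, untreated feeder and IL-15. Points are libraries with their replicate number and bars are group means. Cd160 is at 10.45 and 10.49 in anti-TIM-3 NK cells, above the other 4, and Ctla4 is at 3.76 and 3.60, below the other 4.

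Ctla4 ran the other way, with the lowest values in anti-TIM-3 NK cells. The normalised count was 13.5 and 12.2 in anti-TIM-3 NK cells, 30.7 and 198 in untreated feeder NK cells, and 152 and 61.4 in IL-15 NK cells. Every library without antibody was above both anti-TIM-3 libraries, but those without antibody were widely scattered. Behind these values were 12 and 7 recovered counts in anti-TIM-3 NK cells (exact Poisson 95% intervals of 6.20 to 21.0 and 2.81 to 14.4, counting error only). The brightest negative control had 7 and 9 counts in the same libraries, so Ctla4 was at or near background there and the size of its difference is poorly determined. The 2 untreated feeder libraries had 31 and 160 recovered counts of Ctla4. Their gap of 2.69 on the log2 scale was the 2nd largest of 430 probes, whose median gap between these libraries was 0.27. In IL-15 NK cells, with 182 and 84 recovered counts, the gap was 1.31.

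The tests on Ctla4 changed with the library left out. Against untreated feeder libraries its log2 fold change was -2.60 ± 0.90 and did not pass (limma adjusted p = 0.0640, 95% interval -4.79 to -0.42). Without untreated feeder replicate 2 it was -3.95 (limma adjusted p = 0.0368), and without untreated feeder replicate 3 it was -1.26 (limma adjusted p = 0.225). Each of these fits has 1 untreated feeder library, which is assumed to vary like the other groups, so neither p bears on the spread among untreated feeder libraries. Ctla4 also passed without IL-15 replicate 1, with only the 2 groups compared, on the positive control scale and with the negative control mean subtracted. The positive control fit had a median of 1290 total degrees of freedom, against 6.18, so its p-values are not comparable. Subtracting negative control means of 4.25 and 5.63 left few counts of Ctla4 in the anti-TIM-3 libraries, so the -3.96 found there is poorly determined. Against IL-15 libraries Ctla4 fell by 2.91 ± 0.90 on the log2 scale (limma adjusted p = 0.0371), the 10th lowest of 430. This fall passed on all 4 other scales, at -3.38 to -3.22, 1 of them the positive control scale, whose p-values are not comparable. It ended with voom (limma adjusted p = 0.0676). The call also ended without IL-15 replicate 1 (-2.26) and without either anti-TIM-3 library (-2.99 and -2.84), where 1 group has 1 library. With replicate number as a block the fall against IL-15 libraries did not pass either (-2.21, limma adjusted p = 0.179). Between untreated feeder and IL-15 libraries the difference in Ctla4 was -0.31 ± 0.90 (limma adjusted p = 0.966), and it turned to 1.03 without untreated feeder replicate 2.

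T cells are the other lymphocytes known for Ctla4. Of 9 listed T cell markers, Cd3d was the 1 in the table, at 67.6 and 41.7 normalised counts in anti-TIM-3 NK cells, 190 and 188 in untreated feeder NK cells, and 22.5 and 64.4 in IL-15 NK cells. It was lower in anti-TIM-3 than in untreated feeder NK cells (log2 fold change -1.83 ± 0.54, limma adjusted p = 0.0396, passing on 3 of 4 other scales). For untreated feeder minus IL-15, Cd3d was at 2.31 ± 0.54, the highest of 430, and did not pass (limma adjusted p = 0.441). Ctla4 was at -0.31 there. Of 3 markers of regulatory T cells, Il2ra and Ikzf2 were in the table, and neither passed in any comparison. The summed normalised count of these 2 was 585 and 686 in anti-TIM-3 NK cells, 454 and 405 in untreated feeder NK cells, and 622 and 328 in IL-15 NK cells. Their part in the Ctla4 values was not tested.

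Lag3 was highest with anti-TIM-3 and lowest with IL-15, and its 1 call depended on the scale. The normalised count was 242 and 222 in anti-TIM-3 NK cells, 186 and 141 in untreated feeder NK cells, and 73.4 and 102 in IL-15 NK cells. No pair of groups overlapped. Anti-TIM-3 libraries were 1.42 ± 0.27 above IL-15 libraries on the log2 scale (limma adjusted p = 0.00782), a 2.68-fold rise. Of that, 0.70 is the median of all probes, and on the 4 other scales the difference was 0.67 to 0.87 and did not pass (lowest limma adjusted p = 0.0934). The call also ended with voom (0.72, limma adjusted p = 0.101) and with replicate number as a block (1.39, limma adjusted p = 0.0724). Neither step passed by itself: Lag3 was at 0.52 ± 0.27 for anti-TIM-3 minus untreated feeder (limma adjusted p = 0.165) and at 0.90 ± 0.27 for untreated feeder minus IL-15 (limma adjusted p = 0.441). Relative to the medians those steps were 0.05 and 0.71. Lag3 was thus 201st of 430 for anti-TIM-3 minus untreated feeder and 32nd for untreated feeder minus IL-15, ordered from the highest fold change. Lag3 had the smallest unadjusted p of the 5 genes in the feeder comparison (0.0138), in which 39 of 430 probes, or 9.07%, had an unadjusted p below 0.05 and none passed after adjustment.

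Cd96 had the same order of groups as Lag3. Its normalised count was 122 and 158 in anti-TIM-3 NK cells, 82.2 and 92.7 in untreated feeder NK cells, and 72.6 and 65.8 in IL-15 NK cells. The groups did not overlap, and the 2 libraries of the untreated feeder and of the IL-15 group lay close together. Cd96 rose by 1.00 ± 0.26 on the log2 scale against IL-15 libraries (limma adjusted p = 0.0216). It was at 0.67 ± 0.26 against untreated feeder libraries and did not pass (limma adjusted p = 0.0934, 95% interval 0.03 to 1.30). The rise against IL-15 libraries was 0.26 to 0.46 on the 4 other scales and passed on none of them. It ended with voom, and when IL-15 replicate 1 (limma adjusted p = 0.0563), IL-15 replicate 3 (0.0703) or anti-TIM-3 replicate 2 (0.117) was left out. Relative to the medians of all probes Cd96 was at 0.20 and 0.31 in these comparisons. With replicate number as a block the rise against IL-15 libraries did not pass (0.98, limma adjusted p = 0.147).

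Tigit passed in none of the 3 comparisons on any of the 5 scales. It had normalised counts of 126 and 142 in anti-TIM-3 NK cells, 106 and 180 in untreated feeder NK cells, and 127 and 135 in IL-15 NK cells. The untreated feeder libraries enclosed all the other values. The log2 fold change was -0.04 ± 0.30 for anti-TIM-3 minus untreated feeder, with a 95% interval of -0.78 to 0.69 (limma adjusted p = 0.908). It was 0.03 ± 0.30 for anti-TIM-3 minus IL-15, with an interval of -0.70 to 0.77. Changes within these bounds cannot be told from none in this fit. On the 4 other scales Tigit was at -0.56 to -0.30 against untreated feeder libraries and at -0.69 to -0.50 against IL-15 libraries, where its sign thus depended on the scale. Relative to the medians of all probes Tigit was at -0.51 and -0.66 in these comparisons.

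**Figure D2:**
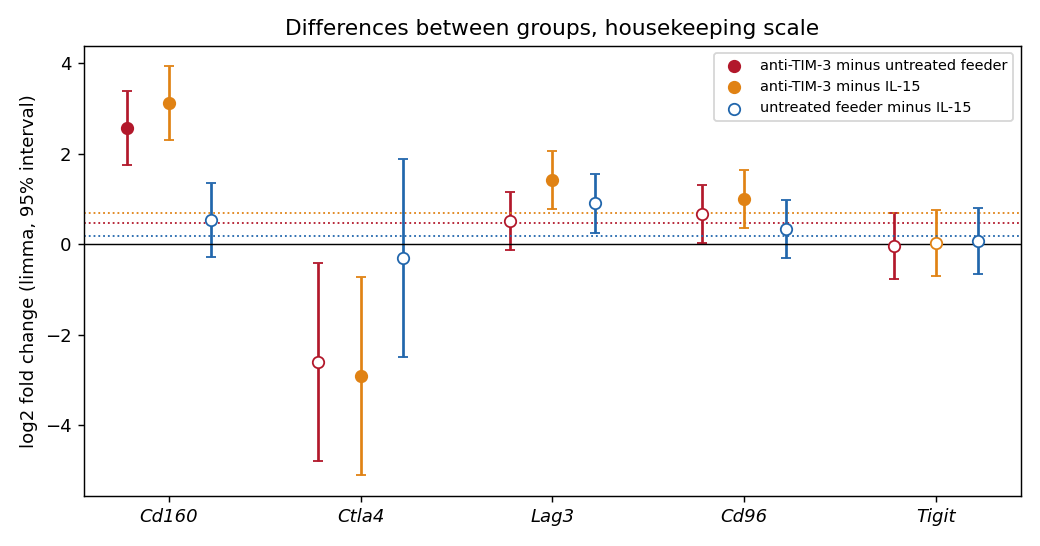
Log2 fold change (vertical axis) of each receptor gene in the 3 comparisons, on the housekeeping scale. Bars are 95% intervals of the limma fit, filled points passed an adjusted p of 0.05, open points did not, and dotted lines mark the median of the 430 tested probes. Cd160 passed in both anti-TIM-3 comparisons, and no gene passed in the feeder comparison.

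Counted together, 1 of the 5 genes rose and 0 fell between anti-TIM-3 and untreated feeder libraries, where 31.4% of tested probes rose and 7.21% fell. With TMM (trimmed mean of M values) scaling the count was the same, against 12.3% and 11.6% of probes. Between anti-TIM-3 and IL-15 libraries 3 rose and 1 fell, where 44.0% of probes rose and 6.98% fell. With TMM, 1 rose and 1 fell in that comparison, against 18.1% and 17.7% of probes. Libraries of anti-TIM-3 and untreated feeder groups did not overlap for 3 genes that were higher and 1 that was lower, and the same was true of 60.2% and 15.3% of tested probes. Between anti-TIM-3 and IL-15 libraries 3 genes were higher and 1 lower without overlap, as were 67.4% and 14.7% of probes, and between untreated feeder and IL-15 libraries 2 were higher and 0 lower, as were 34.4% and 5.81%. The median log2 fold change of the 5 genes was 0.52 beside 0.47 for all probes against untreated feeder libraries, and 1.00 beside 0.70 against IL-15 libraries. No call was made between untreated feeder and IL-15 libraries, by limma or by voom, where 0.0% of probes passed. These comparisons share libraries, so they are not independent of each other.

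**Figure D3:**
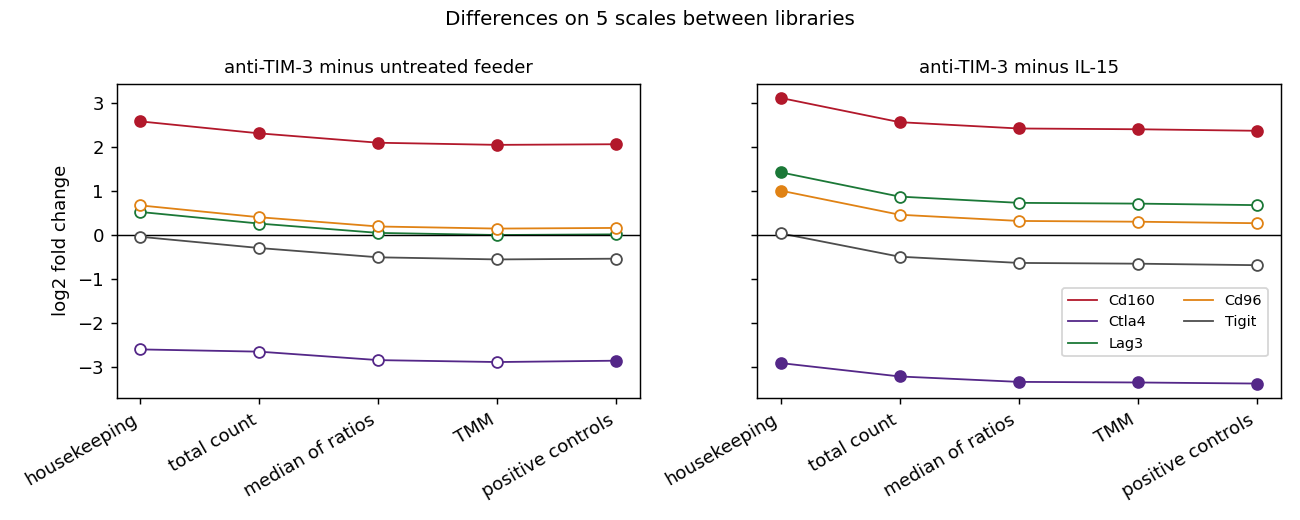
Log2 fold change of the 5 receptor genes (vertical axis) with the libraries scaled in 5 ways (horizontal axis), for anti-TIM-3 minus untreated feeder on the left and anti-TIM-3 minus IL-15 on the right. Filled points passed a limma adjusted p of 0.05. Cd160 passed on every scale in both panels, whereas Lag3 and Cd96 passed only on the housekeeping scale of the right panel.

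The difference of 2 genes within a library does not depend on the scale between libraries. Ctla4 minus Cd160, as a difference of log2 values, was -6.69 and -6.89 in anti-TIM-3 NK cells, -3.41 and 0.19 in untreated feeder NK cells, and -0.33 and -1.20 in IL-15 NK cells. The anti-TIM-3 libraries were the lowest 2 of 6, with Ctla4 at or near background there, so that the size of those 2 differences is not well determined. Tigit minus Cd160 was -3.47 and -3.34 in anti-TIM-3 NK cells, -1.62 and 0.06 in untreated feeder NK cells, and -0.59 and -0.06 in IL-15 NK cells. For Lag3 minus Cd160 the values were -2.53 and -2.70, then -0.81 and -0.30, then -1.38 and -0.46 in the same order of groups. Every one of the 4 other genes was thus lower relative to Cd160 in both anti-TIM-3 libraries than in any library without antibody. Tigit minus Cd96, the pair that shares CD155, was 0.05 and -0.15 in anti-TIM-3 NK cells, 0.37 and 0.96 in untreated feeder NK cells, and 0.80 and 1.04 in IL-15 NK cells. The mean of that difference was lower with anti-TIM-3, at -0.71 on the log2 scale relative to untreated feeder libraries, without overlap. With 2 libraries against 2 an exact permutation test cannot give a two-sided p below 0.333, so these differences are given as values.

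**Figure D4:**
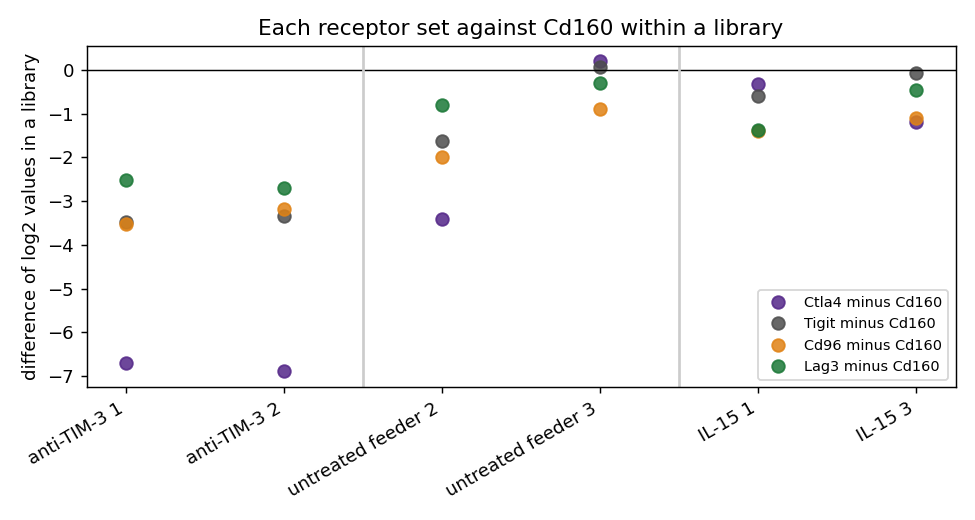
Difference between the log2 values of Ctla4, Tigit, Cd96 or Lag3 and that of Cd160 within each library (vertical axis, 0 where both have the same value). The 2 anti-TIM-3 libraries on the left hold the lowest value of each of the 4 genes, down to -6.89 for Ctla4, which was at or near background in both. Cd160 had the highest fold change with anti-TIM-3, so this order restates its rise.

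Ligands of these receptors were taken from a list of 19 symbols, of which 9 were in the table and 8 were tested. Between anti-TIM-3 and untreated feeder libraries 4 rose and 1 fell, and between anti-TIM-3 and IL-15 libraries 5 rose and none fell. These counts stand beside 31.4% of all probes that rose and 7.21% that fell in the first comparison, and 44.0% and 6.98% in the second. With TMM, 3 ligand genes rose and 1 fell in each. The TMM shares of all probes were 12.3% and 11.6% in the first comparison, and 18.1% and 17.7% in the second. Tnfrsf14, whose product HVEM is bound by CD160, had normalised counts of 282 and 318 in anti-TIM-3 NK cells, 121 and 142 in untreated feeder NK cells, and 128 and 135 in IL-15 NK cells. Only the anti-TIM-3 libraries stood apart, by 1.19 ± 0.21 on the log2 scale from untreated feeder libraries (limma adjusted p = 0.0104). That rise passed on 3 of 4 other scales, at 0.66 to 0.92. Tnfsf14, the gene of LIGHT, another ligand of HVEM, was at 214 and 384 normalised counts in anti-TIM-3 NK cells, 51.5 and 43.3 in untreated feeder NK cells, and 30.9 and 55.6 in IL-15 NK cells. It rose by 2.60 ± 0.42 against untreated feeder libraries (limma adjusted p = 0.0104) and passed on all 4 other scales. The class I genes H2-K1 (1.43 ± 0.28) and H2-D1 (1.20 ± 0.27) rose too, H2-K1 on 3 and H2-D1 on 0 of the 4 other scales.

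Among the ligands of LAG-3, the class II gene H2-Aa was at 188 and 286 normalised counts in anti-TIM-3 NK cells, 58.4 and 33.4 in untreated feeder NK cells, and 35.0 and 62.9 in IL-15 NK cells. It rose by 2.39 ± 0.45 against untreated feeder libraries (limma adjusted p = 0.0120), on all 4 other scales as well. H2-Ab1, the partner chain, was at -0.01 ± 0.56 in that comparison and rose by 1.68 ± 0.56 against IL-15 libraries (limma adjusted p = 0.0463), which passed on no other scale. Lgals3, encoding galectin-3, another reported ligand of LAG-3, fell by 2.31 ± 0.61 against untreated feeder libraries (limma adjusted p = 0.0286) on all scales. Pvr, the CD155 gene, was at -0.12 ± 0.31 against untreated feeder libraries (95% interval -0.88 to 0.64) and Cd1d1 at 0.30 ± 0.36, and neither passed. Cd86 was too low to be tested, with 7 and 6 recovered counts in anti-TIM-3 NK cells, 24 and 13 in untreated feeder NK cells and 6 and 9 in IL-15 NK cells. CD28, which shares CD80 and CD86 with CTLA-4, was encoded by a transcript at -0.43 ± 0.28 (Cd28, limma adjusted p = 0.261), and the related receptor gene Icos fell by 1.38 ± 0.30 (limma adjusted p = 0.0172) on all scales.

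**Figure D5:**
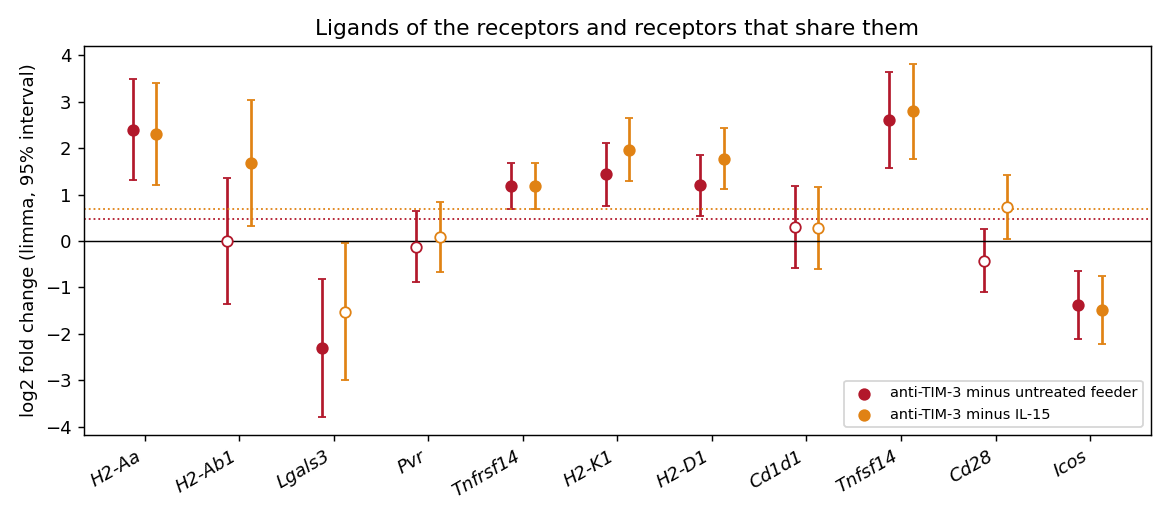
Log2 fold change (vertical axis) of 8 ligand genes, of Tnfsf14, which encodes another ligand of HVEM, and of the receptor genes Cd28 and Icos, for anti-TIM-3 minus untreated feeder and anti-TIM-3 minus IL-15. Bars are 95% intervals, filled points passed and open points did not, and dotted lines mark the medians of all tested probes. Tnfsf14 and H2-Aa had the largest rises, at 2.60 and 2.39 in the comparison with untreated feeder libraries.

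Class II genes are also markers of myeloid and dendritic cells. Of 13 such markers 8 were in the table and 7 were tested. Between anti-TIM-3 and untreated feeder libraries 3 rose and none fell, beside 31.4% and 7.21% of all probes. With TMM these counts were 1 and 0, beside 12.3% and 11.6%. Between anti-TIM-3 and IL-15 libraries 6 rose and none fell, beside 44.0% and 6.98%. With TMM these counts were 4 and 0, beside 18.1% and 17.7%. Those that rose against untreated feeder libraries were H2-Aa, Itgax, encoding CD11c (1.71 ± 0.47), and Cd74, the invariant chain (3.13 ± 0.90). Itgax and Cd74 passed on no other scale, and H2-Aa on all 4. Itgam (1.67 ± 0.59), Cd68 (0.75 ± 0.30), H2-Ab1 and Cd14 (-1.12 ± 0.59) did not pass. Cd74 had normalised counts of 435 and 460 in anti-TIM-3 NK cells, 118 and 22.2 in untreated feeder NK cells, and 12.5 and 45.4 in IL-15 NK cells. The summed normalised count of the 8 was 1082 and 1236 in anti-TIM-3 NK cells, 446 and 437 in untreated feeder NK cells, and 177 and 283 in IL-15 NK cells. Csf1r, a defining gene of macrophages, had 5 to 12 recovered counts over the 6 libraries, at or near the negative controls. The B cell gene Ms4a1 had 8 to 15. The part of other cells in the receptor values was not tested.

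Of 7 tested genes on the list of other inhibitory receptors, 2 rose and 2 fell between anti-TIM-3 and untreated feeder libraries. These counts stand beside 31.4% and 7.21% of all probes. With TMM 0 rose and 2 fell, beside 12.3% and 11.6%. Havcr2, the TIM-3 gene (-4.41 ± 0.62), and Klrg1 (-3.42 ± 0.51) fell on all scales, while Klrd1 (1.44 ± 0.36), the CD94 chain, and Klrc1 (0.63 ± 0.19), its NKG2A partner, rose only on the housekeeping scale. No tested gene of that list had a fold change as high as that of Cd160. Cd244 rose only against IL-15 libraries (1.44 ± 0.28, limma adjusted p = 0.00971), on no other scale. Pdcd1, the PD-1 gene, was not tested, with 10 and 7 recovered counts in anti-TIM-3 NK cells, 9 and 7 in untreated feeder NK cells and 12 and 17 in IL-15 NK cells. Inpp5d, a phosphatase that acts below inhibitory receptors, was the 1 phosphatase gene of 5 listed in the table, and it was at 0.63 against untreated feeder libraries, close to the median, and did not pass. Against IL-15 libraries it rose by 0.73 ± 0.25 (limma adjusted p = 0.0493), on no other scale.

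Of 14 tested transcription factor genes listed for checkpoint and exhaustion programmes, 4 rose and 1 fell between anti-TIM-3 and untreated feeder libraries, and 9 did not pass. This share of rises is near the 31.4% of all probes that rose. Nfatc1, of the NFAT family, was at 349 and 405 normalised counts in anti-TIM-3 NK cells, 170 and 158 in untreated feeder NK cells, and 140 and 207 in IL-15 NK cells, and rose by 1.20 ± 0.25 (limma adjusted p = 0.0159) on no other scale. Tbx21, encoding T-bet, rose by 1.44 ± 0.25 (limma adjusted p = 0.0104) and passed on 3 of 4 other scales. Tcf7 (2.20 ± 0.58) and Egr3 (1.48 ± 0.28) rose, each on 1 other scale, and Eomes fell by 0.72 ± 0.18 (limma adjusted p = 0.0260), on 3 others. With TMM, 1 rose and 1 fell, beside 12.3% and 11.6% of all probes. Against IL-15 libraries 8 rose and 1 fell, beside 44.0% and 6.98% of all probes. With TMM it was 3 and 2 there, beside 18.1% and 17.7%. Egr2 was among the 8, at 1.42 ± 0.31 (limma adjusted p = 0.0120), on no other scale.

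By Pearson correlation of log2 values over the 6 libraries, the probes most like Cd160 were the interferon-induced RNA sensor genes Ifih1 (r = 0.996) and Ddx58 (0.992), and Ifi35 (0.991). Ifih1 had normalised counts of 208 and 219 in anti-TIM-3 NK cells, 108 and 81.6 in untreated feeder NK cells, and 75.9 and 72.4 in IL-15 NK cells. The order of the libraries was that of Cd160 except that untreated feeder replicate 3 and IL-15 replicate 1 changed places. Ctla4 was most like Tirap (0.988), encoding a Toll-like receptor adaptor, Prf1, the perforin gene (0.950), and Icos (0.947). Cd96 was most like the lysosomal membrane gene Lamp1 (0.994), Cd164 (0.991) and Hcst, encoding the adaptor DAP10 (0.988). The closest probes to Lag3 were the autophagy gene Atg5 (0.968) and Cd63 (0.958), and to Tigit they were the adaptor gene Ticam1 (0.966), Tnfrsf13c (0.935) and Il12b (0.828). Over 6 libraries, with the groups and the housekeeping scale in common, such correlations are only a description. With TMM, 6 of the 15 closest probes, 3 for each receptor, were among the closest again. Among the 5 receptors, r was 0.91 between Cd96 and Cd160 and -0.89 between Ctla4 and Cd160.

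The authors' deposited table compares 2 groups named only by number. For these 5 genes its log2 fold changes differ by at most 0.0238 from those of anti-TIM-3 minus untreated feeder here. In the authors' deposited table Cd160 had a log2 fold change of 2.6 (q = 0.0017), Cd96 0.66 (q = 0.035), Ctla4 -2.6 (q = 0.068), Lag3 0.52 (q = 0.17) and Tigit -0.045 (q = 0.94). Cd96 is the 1 gene on opposite sides of 0.05 in the authors' deposited table and in the limma fit here, where its adjusted p was 0.0934. The 2 thresholds are not alike. The authors' q-values come from 498 genes and a test that is not named, and the fit here adjusts over 430 probes.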

How the data were processed

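The authors' deposited value table holds log2 values of 532 probes (498 endogenous, 20 housekeeping and 14 control probes) in 6 libraries. That its scale comes from the housekeeping probes was read from the values. The submitters' processing notes list limma without a version or a role. Per the labels' protocols NK cells were purified before RNA extraction, and the labels describe quantitative PCR although the files hold nCounter probes. The smallest steps between values gave whole counts for 100.0% of the values, within 0.01 of a whole number. One blank control value was read as a count of 0. The authors' deposited table of 1 comparison gives log2 fold changes, a test score (t), p-values and q-values. A further 18 lane columns and 12 lane rows were not used, because no label ties lanes to samples.

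A minimum of 20 recovered counts in 2 or more libraries left 430 probes. They were fitted in R 4.3.3 with limma 3.58.1, in 1 linear model of the 3 groups over all 6 libraries, with variance trend and robust moderation and no pseudocount. p-values were adjusted by Benjamini-Hochberg. Named genes were all 5 receptors, the 3 probes most like each by Pearson correlation (1 of them is not reported here), and members of the lists that passed, at most 6 a list, with all tested ligands and sharing receptors. Marker genes beside the results were picked after their values were seen. The receptors and the lists were chosen with earlier results of these data known. The script was tested on simulated data. Alternatives were TMM on log2 CPM (prior count 2), positive control, total count and median of ratios scales, count filters, background subtraction, moderation, voom, 2-group fits, a replicate block and each library left out. Precision is limited by 2 libraries a group, and the count intervals cover counting error only.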

Additional observations from a re-analysis of the deposited data

How the results depend on the processing

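With 2 libraries a group every call here is limited, and the scale between libraries limits the small ones. Of 255 values of single genes under the alternatives, 208 kept their direction and their side of the threshold, 21 no longer passed, 5 passed in addition and 21 changed sign. The number of receptor genes called between anti-TIM-3 and untreated feeder libraries was 1, and it was 2 on the positive control scale, with the negative control mean subtracted and with only the 2 groups compared, where Ctla4 was added. With a library left out it ran from 0 to 2, with 0 without untreated feeder replicate 3 and 2 without IL-15 replicate 1 or untreated feeder replicate 2. The positive control scale left a median of 1290 total degrees of freedom, against 6.18 on the housekeeping scale, so its p-values are not comparable. Between anti-TIM-3 and IL-15 libraries the number was 4, and it was 2 on the TMM, total count, positive control and median of ratios scales, 1 with voom and 1 with the replicate block, and 2 to 4 with a library left out. With the replicate block the other numbers were 1 between anti-TIM-3 and untreated feeder libraries and 0 between untreated feeder and IL-15 libraries, as without it. With the block Ctla4 (-2.21, limma adjusted p = 0.179), Lag3 (1.39, limma adjusted p = 0.0724) and Cd96 (0.98, limma adjusted p = 0.147) did not pass between anti-TIM-3 and IL-15 libraries. Same-numbered libraries of different groups had r of deviations from the group means of -0.415, 0.0376 and 0.0801. Libraries did not all correlate best with their own number. With 2 libraries a group the deviations are mirror images of each other, so this check cannot exclude shared animals or batches. No label says what the numbers stand for, and they were not taken as pairs in the main fit. No count changed between untreated feeder and IL-15 libraries. Where a call ended or was added beyond this, the cause was not tested.

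The changes of sign were all of values that did not pass. Lag3 between anti-TIM-3 and untreated feeder libraries was at -0.0049 with TMM and -0.0047 with voom. Tigit in that comparison was at 0.14 with the replicate block and ran from -0.43 to 0.34 with a library left out. Between untreated feeder and IL-15 libraries Tigit was at -0.097 with TMM, -0.20 with total count, -0.15 with positive controls, -0.13 with median of ratios and -0.12 with voom, and -0.31 to 0.46 with a library left out. Ctla4 there was at 0.41 with the replicate block and ran from -1.65 to 1.03 with a library left out. Between anti-TIM-3 and IL-15 libraries Tigit was at -0.66 with TMM and voom, -0.50 with total count, -0.69 with positive controls and -0.64 with median of ratios, and -0.055 to 0.12 with a library left out.

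Of the 15 most similar probes, 6 were named again with TMM, 6 with total count, 6 with median of ratios, 2 with positive controls and 11 with the negative control mean subtracted, and 4 to 9 with a library left out. Over all 430 probes, the calls between anti-TIM-3 and untreated feeder libraries were 135 rises and 31 falls on the housekeeping scale, 53 and 50 with TMM, 63 and 37 with total count, 33 and 36 with positive controls, 53 and 43 with median of ratios, 45 and 42 with voom and 47 and 14 with the replicate block. Between anti-TIM-3 and IL-15 libraries they were 189 and 30, against 78 and 76 with TMM.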
